A study of Mus musculus with 4 samples.

Results

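Potassium channels set how readily a sensory neuron fires, and the genes described here are all those whose mouse symbol begins with Kcn. Of the 41388 genes counted, 94 carried such a symbol after 5 antisense entries, Kcnq1ot1 among them, were left out. RNA had been sequenced from EGFP-positive cells sorted from dorsal root ganglia of C57BL/6 mice that report Ret expression with EGFP, in 4 libraries, 1 from a female (called female A) and 3 from males (called male A, B and C). Each library was labelled as coming from 1 animal and from ganglia of spinal levels T11 to S1, with 40 ganglia for the female and 20 for each male. The same levels and number of animals thus go with different counts of ganglia. The labels do not settle how many animals gave the 40. Every library was labelled postnatal day 2. The pools were described differently, however: female A and male A as coming from a P2 mouse (the P2-mouse pair), and the other 2 libraries, male B and male C, as coming from an embryo (the embryo pair). The genotype label was that of a Ret-EGFP transgene, and the series' design text described heterozygotes with EGFP inserted at the Ret locus, so that the allele, and with it the loss of 1 Ret copy, was not settled by the labels. No wild-type or EGFP-negative library was used here.

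Gene counts summed to between 17388493 and 28066448 per library. Ret itself stood at 31.8 and 31.6 RPKM in female A and male A, against 37.0 and 32.7 RPKM in male B and male C (RPKM being reads per kilobase of exon, scaled to the library's gene counts), and all 10 sensory neuron markers examined were detected in every library. The sum of those neuronal markers was 8271, 7775, 13769 and 12919 CPM (counts scaled to the library's total) in female A, male A, male B and male C, whereas 10 Schwann cell markers summed to 4454, 7194, 2890 and 2872 CPM. Schwann cell markers were thus detected in every library, with the higher sums in the P2-mouse pair. Of these sums, Pmp22 alone gave 2719, 4218, 2471 and 2359 CPM in the same order of libraries. In bulk RNA, fewer cells of a type and less RNA per cell cannot be told apart. The pool descriptions also cannot be told apart from any age, batch or colony difference that goes with them, and the libraries carried no molecular identifiers, so limits drawn from counts cover counting error only.

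Channel subunits fall into groups by build and by what opens them. Voltage-gated subunits open on depolarisation and repolarise the spike, modifier subunits make no channel alone and alter partners of the Kv2 group, and calcium- and sodium-activated channels follow the cell's ionic state. Inward rectifiers and tandem-pore (leak) channels hold the resting potential, and auxiliary subunits change the gating and trafficking of pore-forming partners. In dorsal root ganglia, A-type, delayed rectifier, M-type and leak currents are known to shape the excitability of nociceptors, and inward rectifiers of satellite glia clear potassium around the cell bodies.

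The stretch before the start site is shown for 4 genes, because these genes carried the contrast between the pool descriptions described further on, in which the P2-mouse pair had more Kcnj10 and Kcnc2 and less Kcnip2 and Kcnmb1. They were picked after their values had been seen. The sequences are from RefSeq (GRCm38.p6), cover the 250 bases before the annotated start, run 5′ to 3′ on the gene's strand, and have CpG dinucleotides in capitals. Kcnj10 lies at chr1:172340960-172341209 (plus strand), Kcnc2 at chr10:112270873-112271122 (plus strand), Kcnip2 at chr19:45816064-45816313 (minus strand) and Kcnmb1 at chr11:33962763-33963012 (plus strand).
Kcnj10: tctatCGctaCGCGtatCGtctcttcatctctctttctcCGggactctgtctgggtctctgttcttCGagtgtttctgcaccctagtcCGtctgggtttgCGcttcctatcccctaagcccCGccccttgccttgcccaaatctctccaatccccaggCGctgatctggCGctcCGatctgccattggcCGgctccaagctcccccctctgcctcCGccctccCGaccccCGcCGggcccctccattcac
Kcnc2: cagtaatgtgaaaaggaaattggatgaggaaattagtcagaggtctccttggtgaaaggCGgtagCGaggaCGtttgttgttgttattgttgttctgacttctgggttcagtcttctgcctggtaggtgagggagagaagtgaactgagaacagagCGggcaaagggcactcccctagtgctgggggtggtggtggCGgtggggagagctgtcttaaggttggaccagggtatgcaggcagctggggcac
Kcnip2: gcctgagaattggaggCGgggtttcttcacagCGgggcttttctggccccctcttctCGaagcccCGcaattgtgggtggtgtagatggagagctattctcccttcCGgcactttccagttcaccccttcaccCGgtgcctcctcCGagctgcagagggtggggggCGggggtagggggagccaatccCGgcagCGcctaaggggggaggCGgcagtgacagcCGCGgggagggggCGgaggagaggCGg
Kcnmb1: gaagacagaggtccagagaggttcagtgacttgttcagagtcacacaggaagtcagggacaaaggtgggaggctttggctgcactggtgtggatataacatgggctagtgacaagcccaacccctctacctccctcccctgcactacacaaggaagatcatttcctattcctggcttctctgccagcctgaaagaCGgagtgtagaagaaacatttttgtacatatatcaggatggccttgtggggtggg
The genes themselves, by the positions given with the deposited counts (GRCm38), are Kcnj10 (ENSMUSG00000044708, chromosome 1, 172341210 to 172374085, plus strand), Kcnc2 (ENSMUSG00000035681, chromosome 10, 112271123 to 112466304, plus strand), Kcnip2 (ENSMUSG00000025221, chromosome 19, 45791839 to 45816061, minus strand) and Kcnmb1 (ENSMUSG00000020155, chromosome 11, 33963013 to 33973641, plus strand). The Kcnj10 and Kcnip2 stretches held 17 and 15 CpG, the Kcnc2 stretch 5 and the Kcnmb1 stretch 1, so a CpG-rich and a CpG-poor example stood on each side of the contrast. Kcnc2 has 4 annotated start windows, of which 1 is shown. RefSeq windows of 300 bases (250 before and 50 after the start) were found for 69 of the 94 genes, in 94 windows, some of which belong to the same gene and overlap. The median window held 9 CpG, against 7 over all 32851 windows. Over the windows of genes higher in the P2-mouse pair the median was 21 (9 windows of 6 genes), and over those of lower genes 8.5 (20 windows of 12 genes), which is a description of few windows.

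Both strands of the same windows were searched for 5 short motifs. The TATA box letters TATAAA were in 5 of the 94 windows (5.32%), those of Kcnab1, Kcnj13, Kcnj15, Kcnj16 and Kcnj9, and in 13.6% of all windows. An Egr site written GCGGGGGCG was in 4 windows (4.26%), those of Kcna4, Kcng3, Kcnk2 and Kcnt2, against 2.91% of all windows. The Egr form GCGTGGGCG, the cyclic AMP response element TGACGTCA and the core of the RE1 element bound by Rest were in none of the 94 windows. They were in 0.612%, 1.79% and 0.0365% of all windows.

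Of the 94 genes, 92 had at least 1 count, and 68 lay above 3 counts in every library. Kcnv2, a modifier subunit known from photoreceptors, and Kcnk15 had no count in any library, which allows levels of up to 0.107 to 0.173 CPM. A mean of at least 1 RPKM was reached by 45 genes and of at least 10 RPKM by 9. The 5 highest genes held 41.4%, 39.9%, 49.3% and 49.0% of the summed RPKM of the family in female A, male A, male B and male C. Transcripts of a few subunits, chiefly auxiliary ones, thus made up much of the family's RNA. Auxiliary subunits held 34% and 36.3% in the P2-mouse pair and 43.5% and 43.6% in the embryo pair, and the pore-forming voltage-gated subunits 34.5% and 32.6% against 26.1% and 27.6%. Tandem-pore channels held between 12.1% and 14.7%, ion-activated channels between 8.66% and 10.4%, inward rectifiers between 3.11% and 5.29% and modifiers between 3.22% and 3.98%.

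**Figure D1:**
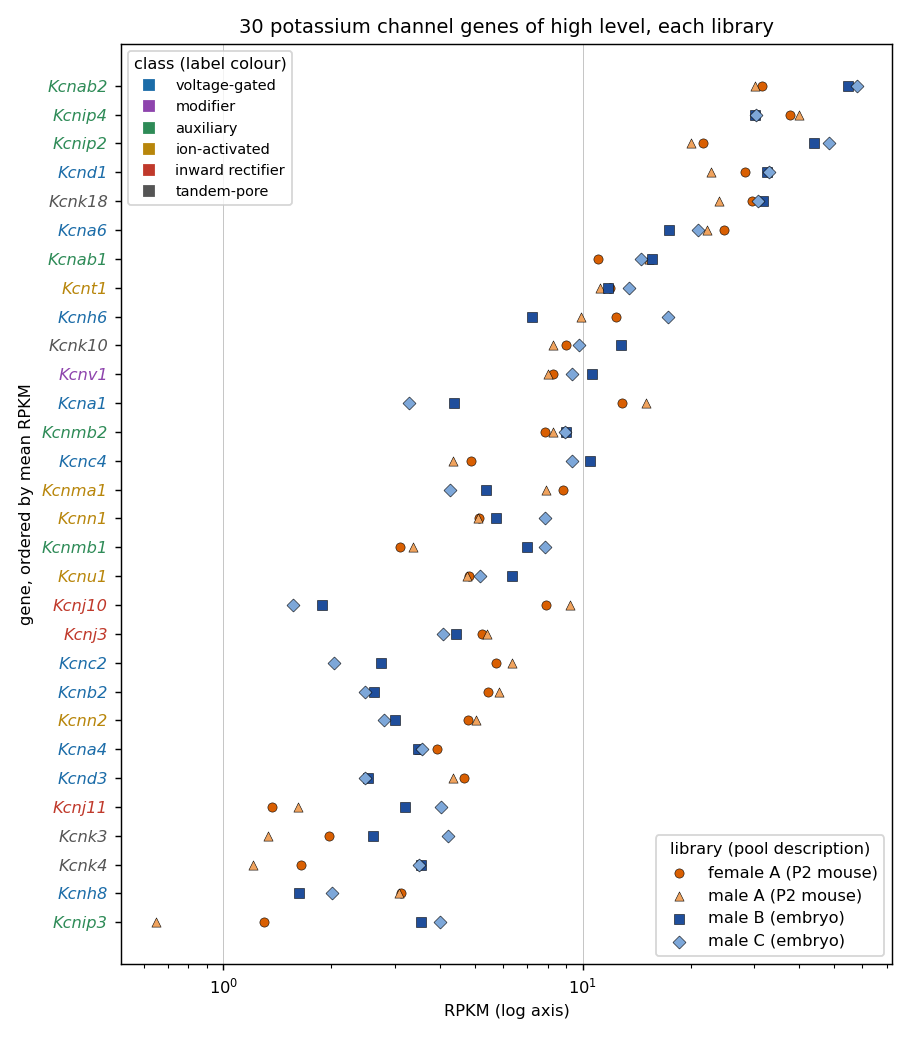
Level in RPKM (log axis) of 30 genes of high mean RPKM in each of the 4 libraries, ordered by mean, with the gene's class given by the colour of its label. Kcnab2 led by mean, at 30.1 to 58.1 RPKM, but lay under Kcnip4 in female A and male A. The 2 libraries of each pool description lie on opposite sides for Kcna1 and Kcnj10 (high in female A and male A) and for Kcnip2 and Kcnmb1 (high in male B and male C).

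The order at the top is that of the mean over libraries and was not the same in each library. By mean RPKM it ran Kcnab2, Kcnip4, Kcnip2, Kcnd1, Kcnk18, Kcna6, Kcnab1, Kcnt1, Kcnh6 and Kcnk10. The ranges over libraries of each pair of neighbours among the first 6 overlapped, as did those of the pairs from Kcnab1 to Kcnk10. Such overlap does not show that neighbours differ little within a library. Kcnip4 lay above Kcnab2 in female A and male A and below it in male B and male C. Kcnk18 lay above Kcna6 in every library. Kcna6, at 17.4 RPKM in its lowest library, lay above Kcnab1, at 15.6 RPKM in its highest.

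The first comparison was between the pool descriptions, 2 libraries against 2, with log2 fold changes given as the P2-mouse pair over the embryo pair. Of the 94 genes, 65 passed the filter on low counts. At an adjusted p under 0.05 (edgeR quasi-likelihood test over all genes), 9 of them were higher and 17 lower in the first pair, and 39 were not called. These are 13.8% and 26.2% of the genes tested in the family, against 22.3% higher and 20.0% lower among all 15568 genes tested. The median log2 fold change was -0.31 over the family and 0.02 over all genes tested. With offsets for GC content and transcript length the split was 5 higher and 24 lower, against 12.8% and 20.3% of all genes, and the medians were -0.44 and -0.07. Fewer genes were called lower without female A or without male A. Leaving out a library leaves a single library in its pair. A call lost in such a fit therefore does not show whether the library's value or the smaller number of libraries was behind it. With sex as a term 3 of the 9 higher and 9 of the 17 lower calls were lost, with adjusted p-values of 0.0506 to 0.217. Those of Kcnn2, Kcnh8 and Kcnma1 were lost on the higher side, and those of Kcns1, Kcnj11, Kcnk3, Kcnk13, Kcnip1, Kcnn1, Kcnk10 and Kcnv1 were among those lost on the lower side. Under each of 11 alternatives, 9 of the 26 calls were kept, those of Kcnj10, Kcna1, Kcnc2 and Kcnd3 (higher) and of Kcnip3, Kcnmb1, Kcnip2, Kcnc4 and Kcnab2 (lower). With a single female library, the fits with sex as a term and without female A both set male A against male B and male C. They are therefore not separate alternatives.

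**Figure D2:**
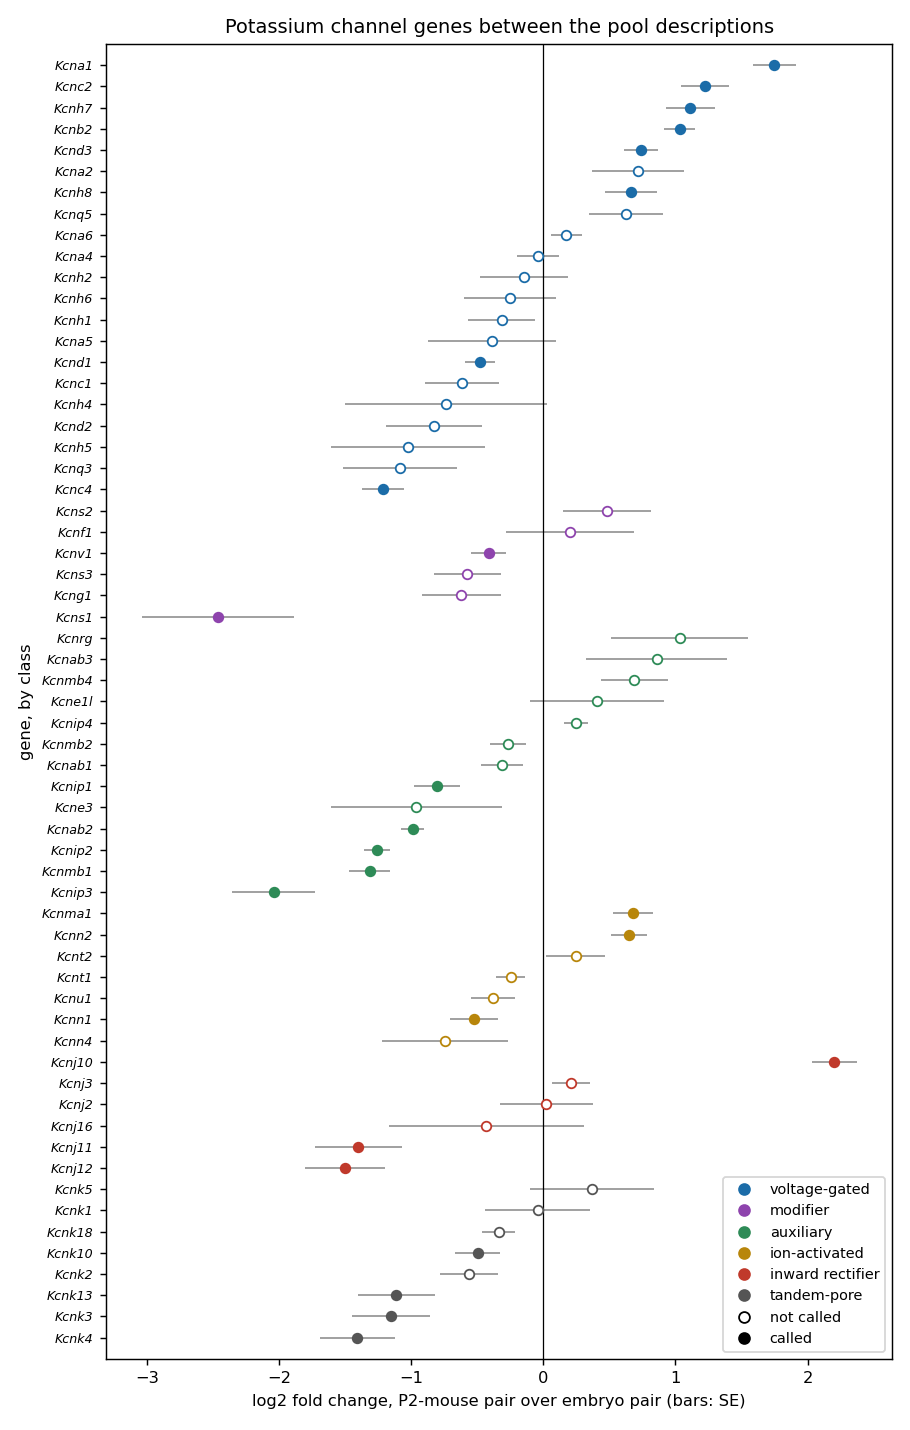
Log2 fold change between the pool descriptions (P2-mouse pair over embryo pair) with its SE for 61 of the 65 tested genes, grouped and coloured by class, with filled points for calls at an adjusted p under 0.05. Calls to the right are mostly voltage-gated subunits with Kcnj10 at 2.20 beyond them, while every called auxiliary, tandem-pore and modifier gene lies to the left.

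Among the 30 pore-forming voltage-gated genes, 25 were tested, of which 6 were called higher, 3 called lower and 16 not called. The called genes are 24% and 12% of those tested, against 22.3% higher and 20.0% lower among all genes. In the Shaker group (Kcna), whose channels sit near nodes of Ranvier and at terminals, Kcna6 was the highest, at 24.7 and 22.1 RPKM in female A and male A, against 17.4 and 21 RPKM in male B and male C. It was not called between the pairs (log2 fold change 0.17, SE 0.12, adjusted p = 0.271), and 39.6% of its exon bases are overlapped by an opposite-strand gene, which makes its level uncertain because the strand setting of the counting is not given. Kcna1, the Kv1.1 subunit that limits repetitive firing, stood at 12.8 and 15 RPKM in female A and male A, against 4.37 and 3.28 RPKM in male B and male C. Both libraries of the P2-mouse pair lay above both of the embryo pair, and Kcna1 rose by a log2 fold change of 1.75 (SE 0.16, adjusted p = 0.000253). Kcna4, an A-type subunit, stood at 3.92 and 3.51 RPKM in female A and male A, against 3.49 and 3.58 RPKM in male B and male C, and was not called (log2 fold change -0.04, SE 0.16, adjusted p = 0.861), but was called lower with GC and length offsets (-0.50, adjusted p = 0.0436). Kcna1 held 29.9% and 35.6% of the summed Kcna RPKM in female A and male A, against 16.6% and 11.4% in male B and male C. Kcna2, the usual partner of Kv1.1 in axons, reached only 0.453 to 0.876 RPKM, Kcna5 0.340 to 0.560, and Kcna3, Kcna7 and Kcna10 at most 0.146. Kcna5, Kcna1 and Kcna6 neighbour each other on chromosome 6, and of these 3 only Kcna1 was called.

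In the Shab group (Kcnb), which carries delayed rectifier current, Kcnb2 stood at 5.43 and 5.83 RPKM in female A and male A, against 2.62 and 2.47 RPKM in male B and male C, and was called higher in the P2-mouse pair (log2 fold change 1.03, SE 0.12, adjusted p = 0.000467), with no overlap between the pairs. With GC and length offsets the log2 fold change of Kcnb2 was -0.05 and the call was lost.

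In the Shaw group (Kcnc), of fast delayed rectifiers, 2 genes moved in opposite directions. Kcnc2, which encodes Kv3.2, stood at 5.73 and 6.36 RPKM in female A and male A, against 2.74 and 2.04 RPKM in male B and male C, and rose in the P2-mouse pair (log2 fold change 1.23, SE 0.18, adjusted p = 0.00146). Kcnc4, which encodes the A-type subunit Kv3.4 of nociceptors, stood at 4.88 and 4.35 RPKM in female A and male A, against 10.5 and 9.32 RPKM in male B and male C, and fell (log2 fold change -1.21, SE 0.16, adjusted p = 0.000801). The pairs did not overlap for either gene, and the ratio of Kcnc4 to Kcnc2 was 0.853 and 0.684 in the P2-mouse pair against 3.83 and 4.58 in the embryo pair. Kcnc1 stood at 0.707 and 0.428 RPKM in female A and male A, against 0.817 and 0.805 RPKM in male B and male C, and was not called (log2 fold change -0.61, SE 0.28, adjusted p = 0.118).

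The Shal group (Kcnd), which carries the somatodendritic A-type current, was led by Kcnd1 and not by Kcnd2 in these cells. Kcnd1 stood at 28.2 and 22.7 RPKM in female A and male A, against 32.4 and 33.0 RPKM in male B and male C, and was called lower in the P2-mouse pair (log2 fold change -0.48, SE 0.11, adjusted p = 0.0126), with both P2-mouse libraries below both embryo libraries. Without male A, the lowest library, the adjusted p was 0.116 and the call was lost. Kcnd3 stood at 4.69 and 4.37 RPKM in female A and male A, against 2.53 and 2.48 RPKM in male B and male C, and rose (log2 fold change 0.74, SE 0.13, adjusted p = 0.00296), with both P2-mouse libraries above both embryo libraries. Kcnd2, the common Kv4 subunit of the brain, stood at only 0.353 and 0.324 RPKM in female A and male A, against 0.471 and 0.639 RPKM in male B and male C, and was not called (log2 fold change -0.83, SE 0.36, adjusted p = 0.105), but was called lower with GC and length offsets (-1.35, adjusted p = 0.0242). Kcnd1 held between 82.9% and 91.5% of the summed Kcnd RPKM.

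**Figure D3:**
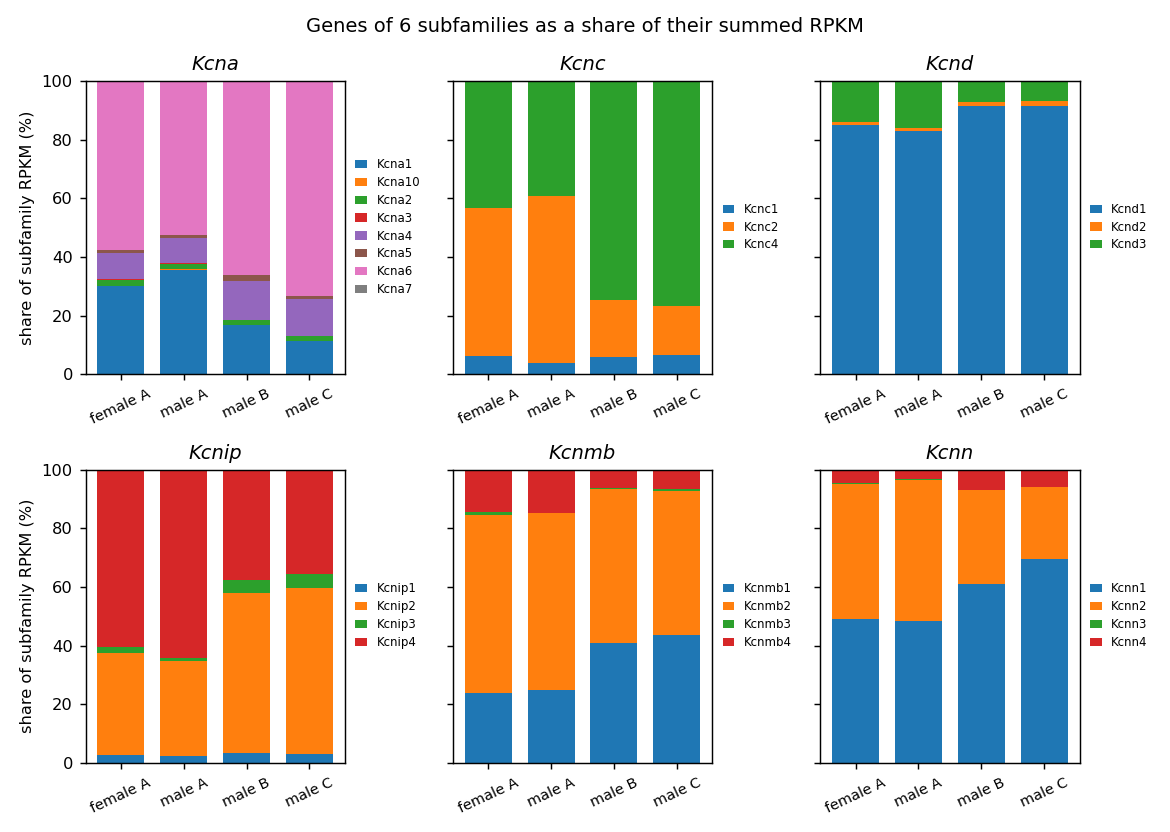
Share (%) of each gene in the summed RPKM of the genes plotted for its subfamily in each library, for 6 subfamilies (Kcna, Kcnc, Kcnd, Kcnip, Kcnmb and Kcnn). Female A and male A resemble each other, as do male B and male C, with an exchange between Kcnc2 (50.6% and 57.1%, against 19.5% and 16.7%) and Kcnc4 (43.2% and 39.1%, against 74.7% and 76.6%).

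Of the ether-a-go-go group (Kcnh), Kcnh6, an Erg-type subunit, was the highest. It stood at 12.4 and 9.92 RPKM in female A and male A, against 7.23 and 17.3 RPKM in male B and male C, and was not called (log2 fold change -0.25, SE 0.35, adjusted p = 0.600). Within the embryo pair male C exceeded male B by 1.26 on the log2 scale, so the pairs overlapped, and without male C the log2 fold change was 0.47 (adjusted p = 0.0442) and without male B -0.75 (adjusted p = 0.00222). Kcnh7 stood at 1.39 and 1.49 RPKM in female A and male A, against 0.548 and 0.683 RPKM in male B and male C, and Kcnh8 at 3.13 and 3.09 RPKM in female A and male A, against 1.63 and 2.00 RPKM in male B and male C, each higher in both P2-mouse libraries. Both were called higher (log2 fold change 1.11, SE 0.19, adjusted p = 0.00250 for Kcnh7 and 0.66, SE 0.20, adjusted p = 0.0301 for Kcnh8). With GC and length offsets their log2 fold changes were 0.04 and 0.34 and neither was called. The call of Kcnh8 was also lost without female A, male A or male B (adjusted p = 0.133, 0.136 and 0.0705). Kcnh1 stood at 1.28 and 1.01 RPKM in female A and male A, against 1.07 and 1.57 RPKM in male B and male C, and Kcnh2, Kcnh3, Kcnh4 and Kcnh5 did not exceed 0.625 RPKM.

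In the group of M-type and related channels (Kcnq), which open below spike threshold and restrain firing, Kcnq5 stood at 1.96 and 1.92 RPKM in female A and male A, against 1.5 and 0.825 RPKM in male B and male C, and was not called (log2 fold change 0.63, SE 0.28, adjusted p = 0.110), but was called higher without male B (1.11, adjusted p = 0.00160) and with no filter (adjusted p = 0.0248). Kcnq3, an M-channel subunit, stood at only 0.0898 to 0.293 RPKM and was not called (log2 fold change -1.09, SE 0.43, adjusted p = 0.0779), but was called lower with GC and length offsets (-1.85, adjusted p = 0.0124). Kcnq1, known from heart and epithelia, did not exceed 0.0843 RPKM.

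Modifier subunits join Kv2 channels and alter their gating, and 1 of them was abundant. Kcnv1, or Kv8.1, stood at 8.24 and 7.99 RPKM in female A and male A, against 10.6 and 9.36 RPKM in male B and male C, above Kcnb2 in every library, at 1.37 to 4.06 times its RPKM. It was called lower in the P2-mouse pair (log2 fold change -0.41, SE 0.13, adjusted p = 0.0351), but not without female A, male A or male B (adjusted p = 0.147, 0.170 and 0.0869). Kcns1, known as a modifier of pain sensitivity, was low, with 7 and 6 counts in female A and male A against 42 and 29 in male B and male C. It was called lower (log2 fold change -2.46, SE 0.58, adjusted p = 0.0111), and again not without female A, male A or male B (adjusted p = 0.101, 0.0672 and 0.0528). Kcns3 stood at 1.39 and 1.73 RPKM in female A and male A, against 2.29 and 1.98 RPKM in male B and male C, and Kcns2 at 0.801 and 0.660 RPKM in female A and male A, against 0.526 and 0.442 RPKM in male B and male C, and neither was called. Kcng1 stood at 0.577 to 0.988 RPKM and Kcnf1 at 0.193 to 0.327, with Kcng2, Kcng3 and Kcng4 at most 0.202. In this class 6 of 10 genes were tested, of which 2 were lower and none higher, the 4 others not being called. The lower genes are 33.3% of those tested, against 20.0% lower and 22.3% higher among all genes.

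Auxiliary subunits had 13 of 17 genes tested, of which 5 were lower in the P2-mouse pair, none higher and 8 not called. The lower genes are 38.5% of those tested, against 20.0% lower and 22.3% higher among all genes. The cytosolic β-subunits of the Kv1 channels (Kcnab) were led by Kcnab2, a reductase-like protein that aids channel transport into axons, at 31.4 and 30.1 RPKM in female A and male A, against 54.5 and 58.1 RPKM in male B and male C. Both embryo libraries lay above both P2-mouse libraries, and Kcnab2 fell in the latter (log2 fold change -0.99, SE 0.09, adjusted p = 0.000227). Kcnab1, the subunit that confers inactivation, stood at 11 and 15.3 RPKM in female A and male A, against 15.6 and 14.6 RPKM in male B and male C, and was not called (log2 fold change -0.31, SE 0.16, adjusted p = 0.146). It was called lower with GC and length offsets (-0.79, adjusted p = 0.00443), without male A (-0.57, adjusted p = 0.0341) and with no filter (adjusted p = 0.0255). Kcnab3 stood at 0.140 to 0.336 RPKM.

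The calcium-binding KChIP proteins (Kcnip), which set the surface density and inactivation of Kv4 channels, showed an exchange of the leading gene by RPKM. Kcnip4 stood at 37.7 and 39.9 RPKM in female A and male A, against 30.2 and 30.2 RPKM in male B and male C, and was not called (log2 fold change 0.25, SE 0.09, adjusted p = 0.0646), but with GC and length offsets its log2 fold change was -0.29 (adjusted p = 0.0355). Among genes with a mean of at least 5 CPM it was called the other way (0.27, adjusted p = 0.0360). Kcnip2 stood at 21.6 and 20.1 RPKM in female A and male A, against 43.9 and 48.3 RPKM in male B and male C, with the embryo pair above the P2-mouse pair, and fell in the latter (log2 fold change -1.26, SE 0.10, adjusted p = 0.000170). The ratio of Kcnip2 to Kcnip4 was 0.573 and 0.502 in female A and male A and 1.45 and 1.60 in male B and male C. Those ratios are of RPKM without offsets. With GC and length offsets Kcnip2 was called lower by less (log2 fold change -0.93), and Kcnip4 was called lower too. Kcnip3, which also acts as the transcriptional repressor DREAM, stood at 1.30 and 0.649 RPKM in female A and male A, against 3.55 and 4.01 RPKM in male B and male C, and fell (log2 fold change -2.04, SE 0.32, adjusted p = 0.00177). Kcnip1 stood at 1.67 and 1.55 RPKM in female A and male A, against 2.6 and 2.61 RPKM in male B and male C, and was called lower (log2 fold change -0.81, SE 0.17, adjusted p = 0.00795), but not without female A (adjusted p = 0.0554) or male A (0.0749). Kcnmb1 lies within the span of Kcnip1 on chromosome 11, on the opposite strand, and was lower as well.

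The β-subunits of the large-conductance calcium-activated channel (Kcnmb) gave 1 call. Kcnmb1, known mainly from smooth muscle, where it raises the calcium sensitivity of the channel, stood at 3.11 and 3.38 RPKM in female A and male A, against 7.01 and 7.87 RPKM in male B and male C, and fell in the P2-mouse pair (log2 fold change -1.31, SE 0.15, adjusted p = 0.000566), without overlap between the pairs. Kcnmb2, which inactivates the channel, stood at 7.84 and 8.27 RPKM in female A and male A, against 8.97 and 8.94 RPKM in male B and male C, and was not called (log2 fold change -0.27, SE 0.14, adjusted p = 0.154), but was called lower with GC and length offsets (-0.85, adjusted p = 0.00226). Kcnmb4, of which 31.5% of exon bases are overlapped by opposite-strand genes, stood at 1.88 and 2.01 RPKM in female A and male A, against 1.04 and 1.18 RPKM in male B and male C, and was not called (log2 fold change 0.69, SE 0.25, adjusted p = 0.0595), except among genes with a mean of at least 5 CPM (adjusted p = 0.0380), and Kcnmb3 did not exceed 0.148 RPKM. The single-span Kcne genes were low. Of these, Kcne1l stood at 1.55 and 0.671 RPKM in female A and male A, against 0.686 and 0.885 RPKM in male B and male C, and Kcne1, Kcne2, Kcne3 and Kcne4 did not exceed 0.618 RPKM. Kcnrg, which interferes with the assembly of Kv channels, stood at 1.91 and 1.21 RPKM in female A and male A, against 0.618 and 0.798 RPKM in male B and male C, and was not called (log2 fold change 1.03, SE 0.52, adjusted p = 0.146).

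Of the 8 calcium-, sodium- or pH-activated channel genes, 7 were tested, of which 2 were higher, 1 lower and 4 not called. The called genes are 28.6% and 14.3% of those tested, against 22.3% higher and 20.0% lower among all genes. Kcnma1, the pore of the large-conductance channel, stood at 8.83 and 7.89 RPKM in female A and male A, against 5.38 and 4.28 RPKM in male B and male C, with the P2-mouse pair above the embryo pair, and was called higher (log2 fold change 0.68, SE 0.15, adjusted p = 0.00894). That call was lost with GC and length offsets, where the log2 fold change was -0.03. It was also lost without female A and with sex as a term (log2 fold change 0.60), fits that both set male A against male B and male C. The ratio of its β-subunit gene Kcnmb1 to Kcnma1 was 0.352 and 0.428 in female A and male A and 1.30 and 1.84 in male B and male C. Kcnt1, the sodium-activated channel that limits firing of sensory neurons, was the highest of the class at 11.9 and 11.1 RPKM in female A and male A, against 11.8 and 13.5 RPKM in male B and male C, with overlapping pairs and no call (log2 fold change -0.25, SE 0.11, adjusted p = 0.110), though it was called lower without male B (-0.35, adjusted p = 0.0409). Kcnt2 stood at 1.38 and 1.24 RPKM in female A and male A, against 0.935 and 1.11 RPKM in male B and male C, and was not called (log2 fold change 0.24, SE 0.22, adjusted p = 0.412), although with offsets its log2 fold change was -0.76 (adjusted p = 0.0369).

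The small-conductance calcium-activated genes (Kcnn), which carry the afterhyperpolarisation, were Kcnn1 and Kcnn2. Kcnn2 stood at 4.81 and 5.04 RPKM in female A and male A, against 2.99 and 2.79 RPKM in male B and male C, and was called higher in the P2-mouse pair (log2 fold change 0.65, SE 0.14, adjusted p = 0.00681), but not without male A (adjusted p = 0.0728) or with sex as a term (0.0506). Kcnn1 stood at 5.13 and 5.11 RPKM in female A and male A, against 5.75 and 7.87 RPKM in male B and male C, and was called lower at the edge of the threshold (log2 fold change -0.53, SE 0.18, adjusted p = 0.0499). It lost the call without female A, male A or male C (adjusted p = 0.204, 0.201 and 0.129) and with the offsets. Kcnn4 stood at 0.339 to 0.652 RPKM, and Kcnn3 did not exceed 0.0389. Kcnu1, a pH-sensitive channel known from sperm, stood at 4.83 and 4.76 RPKM in female A and male A, against 6.37 and 5.17 RPKM in male B and male C in these sorted cells. None of its exon bases is overlapped by another gene and none of its 50-base words is shared, and it was not called (log2 fold change -0.38, SE 0.17, adjusted p = 0.108), but was called lower with GC and length offsets (-0.63, adjusted p = 0.0216) and without male C (-0.57, adjusted p = 0.0169).

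Of the 15 inward rectifier genes (Kcnj), 6 were tested, of which 1 was higher, 2 lower and 3 not called. The called genes are 16.7% and 33.3% of those tested, against 22.3% higher and 20.0% lower among all genes. Kcnj10, or Kir4.1, the channel by which satellite glia and other glia buffer potassium, stood at 7.90 and 9.21 RPKM in female A and male A, against 1.88 and 1.56 RPKM in male B and male C. The P2-mouse pair lay far above the embryo pair, and Kcnj10 rose by more than any other gene of the family that was tested (log2 fold change 2.20, SE 0.17, adjusted p = 0.000155). Of 8 satellite glia markers 4 were higher and 3 lower, with sums of 999, 1156, 769 and 1041 CPM in female A, male A, male B and male C. Of 10 Schwann cell markers 8 were higher and none lower. The median log2 fold change was 2.55 over the Schwann cell list and 0.59 over the satellite glia list. Over all genes tested, 22.3% were higher and 20.0% lower. No marker of either list was at 0 in any library, and the part of glial RNA in the Kcnj10 difference was not tested. Kcnj16, which joins Kir4.1 in many glia and epithelia, stood at only 0.0714 to 0.224 RPKM.

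The other rectifiers were led by Kcnj3. Kcnj3, a G-protein-gated subunit, stood at 5.25 and 5.41 RPKM in female A and male A, against 4.45 and 4.07 RPKM in male B and male C, and was not called (log2 fold change 0.21, SE 0.14, adjusted p = 0.270), but 31.1% of its exon bases are overlapped by an opposite-strand gene. The genes for its channel partners, Kcnj5, Kcnj6 and Kcnj9, had at most 6 counts in any library. Kcnj11, the pore of the ATP-sensitive channel, stood at 1.37 and 1.62 RPKM in female A and male A, against 3.20 and 4.04 RPKM in male B and male C, and Kcnj12, a strong rectifier, at 0.829 and 0.606 RPKM in female A and male A, against 1.84 and 1.96 RPKM in male B and male C. For both, each embryo library lay above each P2-mouse library, and both were called lower (log2 fold change -1.40, SE 0.33, adjusted p = 0.0113 for Kcnj11 and -1.5, SE 0.30, adjusted p = 0.00582 for Kcnj12). Without male A neither call was made (adjusted p = 0.0534 and 0.0517), and without female A that of Kcnj11 was lost as well (0.0825). Kcnj2 stood at 0.405 to 0.686 RPKM, and Kcnj1, Kcnj4, Kcnj8, Kcnj13, Kcnj14 and Kcnj15 did not exceed 0.263.

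Of the 14 tandem-pore genes (Kcnk), 8 were tested, of which 4 were lower in the P2-mouse pair, none higher and 4 not called. The lower genes are 50% of those tested, against 20.0% lower and 22.3% higher among all genes. Kcnk18, or TRESK, the calcineurin-activated leak channel of nociceptors, was the highest at 29.6 and 23.9 RPKM in female A and male A, against 31.8 and 30.7 RPKM in male B and male C, and held 55.1% to 61.7% of the summed Kcnk RPKM. Its pairs did not overlap, but it was not called (log2 fold change -0.34, SE 0.12, adjusted p = 0.0591). It was called lower with relative log expression factors (adjusted p = 0.0493), with no filter (0.0246), by DESeq2 (0.0424) and without male C (0.0450). Kcnk10, or TREK-2, a heat- and stretch-sensitive leak channel of C-fibre nociceptors, stood at 8.99 and 8.29 RPKM in female A and male A, against 12.8 and 9.78 RPKM in male B and male C, and was called lower close to the threshold (log2 fold change -0.50, SE 0.17, adjusted p = 0.0488). Its call was lost without female A, male A or male B (adjusted p = 0.160, 0.237 and 0.153).

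Kcnk4, or TRAAK, a mechanosensitive relative of TREK-2, stood at 1.64 and 1.21 RPKM in female A and male A, against 3.55 and 3.51 RPKM in male B and male C, and the acid-sensitive Kcnk3, or TASK-1, at 1.96 and 1.33 RPKM in female A and male A, against 2.61 and 4.21 RPKM in male B and male C. Both were called lower (log2 fold change -1.41, SE 0.28, adjusted p = 0.00570 for Kcnk4 and -1.15, SE 0.30, adjusted p = 0.0167 for Kcnk3), but neither without male A (adjusted p = 0.0523 and 0.131). Kcnk4 shares 13.2% of its 50-base words with other genes and is uncertain to that extent. Kcnk13 stood at 0.824 and 0.850 RPKM in female A and male A, against 1.90 and 1.45 RPKM in male B and male C, and was called lower (log2 fold change -1.11, SE 0.29, adjusted p = 0.0179), but not without female A, male A or male B (adjusted p = 0.0985, 0.0878 and 0.0627) nor with the offsets. Kcnk2, or TREK-1, stood at 1.82 and 2.12 RPKM in female A and male A, against 2.41 and 2.95 RPKM in male B and male C, and was not called (log2 fold change -0.56, SE 0.22, adjusted p = 0.0738). Kcnk1 and Kcnk5 differed within pairs more than most, Kcnk1 by -1.0 between female A and male A and Kcnk5 by 1.47 between male C and male B (log2). Kcnk6, Kcnk7, Kcnk9, Kcnk12 and Kcnk16 did not exceed 0.324 RPKM.

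Of the neuronal markers, 8 of 10 were lower in the P2-mouse pair and none higher, against 20.0% lower and 22.3% higher among all genes. Their median log2 fold change was -0.52, beside which the lower channel genes stand. The part of the sum of neuronal RNA in those differences was not tested. The 4 genes higher in the P2-mouse pair under all 11 alternatives include the glial Kcnj10 beside Kcna1, Kcnc2 and Kcnd3, subunits known from neurons. Kcnj10, Kcna1 and Kcnc2 were each highest in male A, and Kcnd3 was highest in female A. Fibroblast markers (5 of 8 higher) summed to 1387 and 1524 CPM in the P2-mouse pair against 309 and 328 CPM in the embryo pair, and erythroid markers (3 of 5 higher) to 43.9 and 56.8 against 16.9 and 5.26 CPM. None of those markers was at 0 in any library. The part of glial, fibroblast or erythroid RNA in the Kcnj10, Kcna1, Kcnc2 and Kcnd3 differences was not tested.

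Base composition moved with the calls as well. The genes called higher had a median transcript GC of 45.9% and a median length of 5407 bases, those called lower 55.8% and 3811, those not called 51.2% and 4089, and all genes tested 49.3% and 3231.5. With offsets fitted for both, 5 of the 9 higher and 15 of the 17 lower calls were kept. Those lost were Kcnb2, Kcnh7, Kcnh8 and Kcnma1 on the higher side and Kcnn1 and Kcnk13 on the lower.

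**Figure D4:**
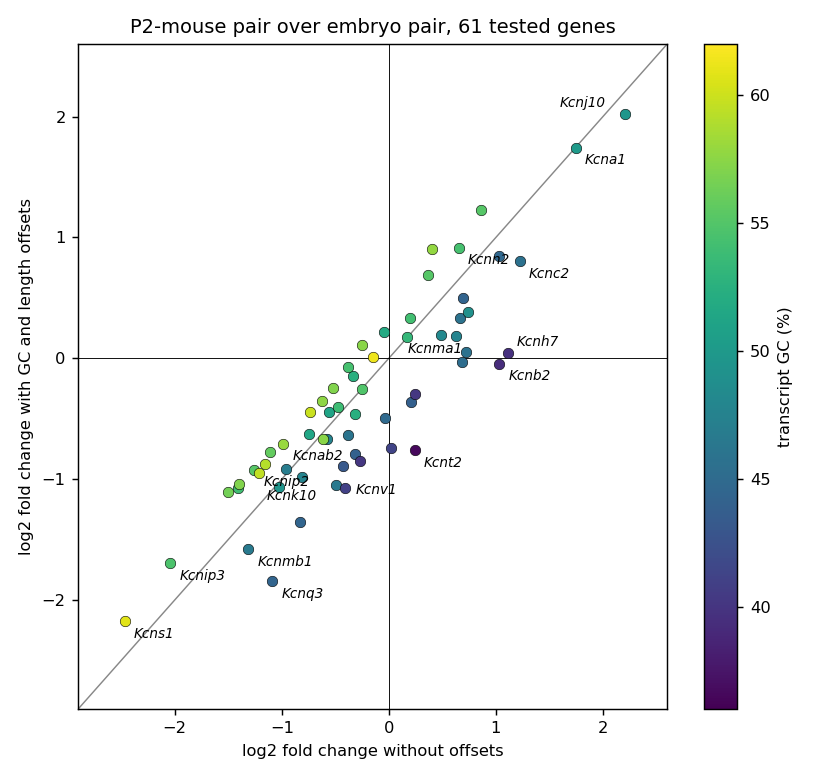
Log2 fold change between the pool descriptions without (x axis) and with (y axis) GC and length offsets for 61 of the 65 tested genes, coloured by transcript GC (%), with a line of equality. Low-GC genes such as Kcnh7 and Kcnb2 lie far under the line, at 0.04 and -0.05 with offsets, while Kcnj10, Kcna1 and Kcnip3 keep their direction and call.

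The series was labelled by sex, and the second comparison set the female library against the 3 male libraries, of which only male A shared its pool description. None of the 70 genes of the family tested was called (edgeR), none had an unadjusted p under 0.05, and the smallest adjusted p was 0.951. DESeq2 and limma-voom made 0 calls in the family as well, and the background was 0.0% of 16708 genes in either direction. Kcnq3, the gene with the smallest unadjusted p (0.0982), had a log2 fold change of -1.31 (SE 0.67, adjusted p = 0.951), female over male. The X-linked genes Kcnd1 and Kcne1l stood at 28.2 and 1.55 RPKM in the female, against 22.7 to 33.0 and 0.671 to 0.885 in the males. Kcne1l was highest in the female but not called (log2 fold change 0.95, SE 0.59, adjusted p = 0.951). When male A was left out, sex and pool description were the same contrast, so calls made in that fit cannot be assigned to sex.

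With the pool description as a term, which sets female A against male A on 1 residual degree of freedom, no gene of the family was called (edgeR), against 0.0% higher and 0.0239% lower of all genes. An unadjusted p under 0.05 was found for 3 genes, each with an adjusted p of 1. Among them, the log2 fold change (female over male) was -0.49 for Kcnab1 (SE 0.16) and 0.98 for Kcnip3 (SE 0.36). Over the 53 genes with a mean of at least 50 counts, the median absolute log2 difference was 0.15 for female A over male A, and 0.20 for male C over male B. With 1 female library, a difference within this spread was not detectable. The spread is not the limit of detection, which was not measured. Kcnip3, at 0.98, was not called either.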

How the data were processed

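RNA was measured in 4 libraries of sorted cells. Per the submitters' processing notes, the authors counted reads with featureCounts 1.4.5 (Subread) against GRCm38.p2. Strand setting, annotation, aligner and the handling of reads with several matches were not given in the sources used here. Deposited gene counts are whole reads per gene, the deposited CPM are counts over the library's total of gene counts, and the deposited RPKM are that CPM per kilobase of exon length, per the file headers. RPKM was used for levels between genes, and counts for tests.

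Ensembl identifiers were given symbols from GENCODE M21 (40254 of 41388 matched). All genes were fitted together in edgeR 4.0.16 (R 4.3.3) with the quasi-likelihood F test, after TMM scaling. Genes of low count were dropped by filterByExpr, set to a count of 10 and a total of 15, and p-values were adjusted over all genes by Benjamini and Hochberg's method at 0.05. Every adjusted p is from edgeR unless another tool is named. An SE is the log2 fold change over the square root of F. The 2-against-2 comparison has 2 libraries a group, and the female test takes the female's spread to be that of the males. Nothing in the labels says more of replication than 1 animal per library. Alternatives were relative log expression factors, no filter on counts, only genes with a mean of 5 CPM or more, DESeq2 1.42.0, limma-voom (limma 3.58.1), offsets for GC and length of the longest transcript (mgcv 1.9.3), a term for sex, and leaving out each library in turn.

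Values are given for the 3 highest members of each subfamily, the 15 highest of all, up to 12 called rises and 12 falls, and undetected members by name; other members are given by range. Kcnip1 and the few other genes given values outside that rule were added after their values were seen. Some genes that the rule takes are left out of the text and plots, though counts over the family hold them. The genes, lists, rule and comparisons were chosen with earlier results of these data known. A level under 3 counts (0.107 to 0.173 CPM) was treated as not detectable. Overlapping exon bases were counted on the exon positions given with the deposited counts, and shared 50-base words on GENCODE M21 transcripts.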

Additional observations from a re-analysis of the deposited data

How the results depend on the processing

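Between the pool descriptions, 9 genes of the family were higher and 17 lower. With GC and length offsets 5 were higher, with a mean of at least 5 CPM 10 were lower, and with sex as a term 9 were lower. Leaving out each library in turn gave 7 to 11 higher and 6 to 20 lower. The counts were 7 and 10 without female A, 7 and 6 without male A, 9 and 17 without male B and 11 and 20 without male C. Relative log expression factors, no filter and DESeq2 lost none of the 26 calls, and limma-voom lost 2, Kcnn1 and Kcnk10. The female test made no call in the family. Of the fits that left out a male, only that without male A made any, and there sex and pool description are the same contrast.

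Of single genes, the log2 fold change changed sign with offsets for Kcnb2 (-0.048), Kcnma1 (-0.033), Kcnip4 (-0.29), Kcnj3 (-0.36), Kcnt2 (-0.76) and Kcnh6 (0.11). With sex as a term it did so for Kcne1l (-0.33) and Kcnf1 (-0.18). Over the 4 fits that left out a library it ran from -0.33 (without female A) to 0.85 for Kcne1l, from -0.18 (without female A) to 0.48 for Kcnf1, and from -0.75 to 0.47 (without male C) for Kcnh6. For Kcna4 it ran from -0.11 to 0.031 (without male A). The cause was not tested. Of the 15 genes highest by RPKM, 12 were among the 15 highest by CPM.

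No paired analysis was possible because the female and male libraries share only 1 replicate letter, A. Female A and male A also share a pool description, which was fitted as a term and gave 0 calls in the family. With 2 libraries a group, the adjusted p rests on a spread pooled across genes. Depth limits the 29 untested genes, whose counts were too low.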

Other observations

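Proteins that bind, cluster or silence potassium channels were examined as a list of 27 genes without a Kcn symbol, of which 24 were tested between the pool descriptions. In the P2-mouse pair 6 were higher and 8 lower (edgeR, adjusted p under 0.05), beside 22.3% and 20.0% of all genes, and with GC and length offsets 4 were higher and 10 lower. The median log2 fold change was -0.06 over the list. Under every alternative in which the gene was tested, 3 of the higher and 5 of the lower calls were kept. Dlg2 and Lgi3, among those 5, lay under a mean of 5 CPM and were not tested with that filter. By level, Vapa, which anchors Kv2 clusters at the endoplasmic reticulum, was the highest at 174 and 176 RPKM in female A and male A, against 213 and 216 RPKM in male B and male C. Epb41l3 followed at 66.2 and 69.1 RPKM in female A and male A, against 66.2 and 56.6 RPKM in male B and male C, and was not called. Dpp6, the transmembrane partner of Kv4 channels, stood at 40.6 and 37.9 RPKM in female A and male A, against 62.8 and 60.3 RPKM in male B and male C, with the embryo pair above the P2-mouse pair, and fell (log2 fold change -0.76, SE 0.08, adjusted p = 0.000402). Adam22 stood at 35.1 and 33.5 RPKM in female A and male A, against 29.5 and 26.2 RPKM in male B and male C, and was not called (log2 fold change 0.19, SE 0.09, adjusted p = 0.140), but was lower with the offsets (-0.54).

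The secreted Lgi proteins, which organise Kv1 channels in axons, did not move as a group. Lgi1 stood at 2.67 and 2.94 RPKM in female A and male A, against 0.439 and 0.677 RPKM in male B and male C, and rose (log2 fold change 2.21, SE 0.24, adjusted p = 0.000440), and Lgi3 stood at 0.717 and 0.344 RPKM in female A and male A, against 3.23 and 1.81 RPKM in male B and male C, and fell (log2 fold change -2.31, SE 0.42, adjusted p = 0.00384). Lgi4, which is known from Schwann cell myelination, stood at 0.847 and 0.928 RPKM in female A and male A, against 0.269 and 0.289 RPKM in male B and male C, and was called higher (log2 fold change 1.55, SE 0.34, adjusted p = 0.00810), but not without male A (adjusted p = 0.0669). Rest, the repressor of neuronal channel genes, stood at 2.24 and 2.61 RPKM in female A and male A, against 0.574 and 0.495 RPKM in male B and male C, higher in both P2-mouse libraries, and rose (log2 fold change 2.07, SE 0.21, adjusted p = 0.000361). Abcc8, the sulphonylurea receptor that pairs with Kcnj11, stood at 3.63 and 3.53 RPKM in female A and male A, against 5.99 and 6.02 RPKM in male B and male C, and fell (log2 fold change -0.86, SE 0.14, adjusted p = 0.00222).

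Among the scaffolds, Cntnap1, of the axon beside the node, stood at 3.26 and 2.70 RPKM in female A and male A, against 6.51 and 6.23 RPKM in male B and male C, and fell (log2 fold change -1.21, SE 0.15, adjusted p = 0.000693), as did Dlg2 at 0.124 and 0.178 RPKM in female A and male A, against 0.593 and 0.726 RPKM in male B and male C (log2 fold change -2.26, SE 0.32, adjusted p = 0.00116). Ank3, the ankyrin of the node, stood at 12.2 and 11.4 RPKM in female A and male A, against 6.17 and 5.87 RPKM in male B and male C, and rose (log2 fold change 0.85, SE 0.09, adjusted p = 0.000320). Ank2 (0.56) and Dlg1 (1.30) were called higher, but not with the offsets (adjusted p = 0.240 and 0.0611). Dlg4 (-0.90) was called lower but not without male A (0.0636). Cntnap2 (-0.53) was called lower but not without male A (0.201) or male B (0.0871), and Vapa (-0.41) was called lower but not without female A (0.0664) or male A (0.0568). Lrrc38, which modifies the large-conductance channel, had no count. Beside these values, Schwann cell and fibroblast marker sums were higher in the P2-mouse pair, the fibroblast sums being 1387, 1524, 309 and 328 CPM in female A, male A, male B and male C, and their part in the differences was not tested.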
